A study of Mus musculus with 24 samples.

Results

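The genes described here are 10 targets of the tumour suppressor p53 and mediators of cellular senescence, measured by RNA sequencing in mouse liver. They were taken by symbol from the gene count table, and each of Cdkn1a, Cdkn2a, Cdkn2b, Mdm2, Ccng1, Bax, Trp53inp1, Phlda3, Btg2 and Gdf15 matched 1 row of the 56205 rows. C57BL/6J mice of both sexes received a methionine-choline deficient (MCD) diet or a control diet for 20 weeks, and 12 whole-liver libraries were made per diet. Male and female animals were equally represented in each diet according to the series design, but the sex of a single library is not labelled and none was assigned. The age at the start of this diet is not given in the sources used here. By the study's methods the MCD formula was also rich in fat and the control was a companion diet, which 1 label field calls chow, so a difference between the groups covers the whole formula. No gene was deleted or overexpressed in either group. The labels do not tie a library to an animal, so p-values measure the spread between these libraries.

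p53 is a transcription factor held at a low level by the ubiquitin ligase Mdm2, itself a p53 target, and it accumulates after DNA damage and other stress. Its targets halt the cell cycle, start apoptosis, restrain growth signalling or feed back on p53. Senescence is a lasting cell cycle arrest maintained by inhibitors of cyclin-dependent kinases (CDKs), chiefly p21 from Cdkn1a, p16 from Cdkn2a and p15 from Cdkn2b, and senescent cells secrete cytokines, proteases and growth factors. In the liver, p21 and the circulating stress hormone Gdf15 are also induced through routes that do not need p53.

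p53 binds DNA as a tetramer, on a pair of half-sites of 10 bases each. The promoters below, from RefSeq on build GRCm38.p6, are shown because they are those of the 10 genes that hold a match to the p53 half-site consensus. Each runs from 250 bases before the transcription start to 50 bases after it, 5′ to 3′ on the gene's own strand, and capitals mark the half-sites. The consensus is a palindrome, so 1 search covered both strands.
Cdkn1a, chr17:29090729-29091028, plus strand: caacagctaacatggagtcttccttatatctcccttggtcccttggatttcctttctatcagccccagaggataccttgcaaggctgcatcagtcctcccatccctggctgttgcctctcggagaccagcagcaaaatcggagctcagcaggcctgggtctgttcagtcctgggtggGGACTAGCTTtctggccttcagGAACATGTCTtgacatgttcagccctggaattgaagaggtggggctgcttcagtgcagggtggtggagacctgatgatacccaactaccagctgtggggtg
Mdm2, chr10:117710709-117711008, minus strand: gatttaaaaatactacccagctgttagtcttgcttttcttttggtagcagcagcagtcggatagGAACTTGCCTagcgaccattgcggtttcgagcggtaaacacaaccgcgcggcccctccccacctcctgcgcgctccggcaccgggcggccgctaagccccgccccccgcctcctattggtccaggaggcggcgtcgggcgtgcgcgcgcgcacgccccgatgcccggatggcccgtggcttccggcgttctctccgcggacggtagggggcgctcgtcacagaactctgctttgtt
Ccng1, chr11:40755237-40755536, minus strand: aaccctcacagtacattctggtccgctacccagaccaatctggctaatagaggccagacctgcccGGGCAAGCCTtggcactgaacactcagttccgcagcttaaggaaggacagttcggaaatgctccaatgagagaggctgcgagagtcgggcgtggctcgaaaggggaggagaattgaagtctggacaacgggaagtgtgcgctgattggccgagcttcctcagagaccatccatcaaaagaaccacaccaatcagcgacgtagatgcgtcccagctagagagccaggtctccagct
Bax, chr7:45466849-45467148, minus strand: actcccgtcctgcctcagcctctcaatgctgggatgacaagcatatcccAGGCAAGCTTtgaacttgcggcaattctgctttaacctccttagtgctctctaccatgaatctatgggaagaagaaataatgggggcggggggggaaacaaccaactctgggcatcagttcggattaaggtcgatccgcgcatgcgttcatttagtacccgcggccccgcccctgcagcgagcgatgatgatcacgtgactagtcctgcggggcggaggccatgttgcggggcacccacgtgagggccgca

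Promoters of 9 of the 10 genes were in the table, 12 in all because some genes had more than 1 start, and 4 of the 12 held a half-site. Across all 32851 promoters of this length, 8.36% held 1 or more. The upstream Cdkn1a start had 2 half-sites, beginning at -73 and -51 relative to the start and separated by 12 bases. Only exact matches were marked, and the 10 bases directly after the second half-site miss the consensus at their first base only. A pair with a spacer of 0 to 13 bases occurred in 0.0731% of all promoters. The other Cdkn1a start, 2790 bases downstream, held none. The single matches began at -186 for Mdm2, -185 for Ccng1 and -201 for Bax. These matches describe letters in a short window, and binding was not measured. Trp53inp1 was the gene without an entry.

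Library totals ran from 16793207 to 24915175 counts on control and from 16388650 to 24577848 on MCD. Levels are given in CPM, a gene's counts relative to its library's total, with totals scaled by the trimmed mean of M values (TMM). The TMM factors separated the diets, from 0.642 to 0.973 on control and from 1.07 to 1.26 on MCD. Fold changes near the limit therefore depend on this scaling. The tissue matched its label, with 7 hepatocyte markers (Alb, Ttr, Apoa1, Cps1, Asgr1, Hnf4a and Cyp2e1) summing to between 75070 and 172180 CPM on control and between 57307 and 82855 CPM on MCD, and none at 0 in any library. Control replicates 4 and 12 were singled out after seeing the data, on different measures. Control replicate 12 had a median correlation of 0.932 with its group, against 0.962 to 0.978 for the other control libraries apart from replicate 4 (0.969), and the lowest TMM factor (0.642). Control replicate 4 carried 65.5 CPM of monocyte-derived macrophage markers in sum, where the controls other than these 2 held 10.1 to 46.8 CPM and the MCD libraries 596 to 1330 CPM. By correlation and by TMM factor (0.959, against 0.792 to 0.973) replicate 4 lay within the range of the other controls. It was also the highest control for Cdkn1a, Phlda3 and Btg2. Leaving it out therefore favours larger folds and is no independent check on these genes. Results that rest on control replicates 4 and 12 are given with and without them.

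On MCD, the p21 gene Cdkn1a, the Akt inhibitor Phlda3, the antiproliferative factor Btg2, the secreted hormone Gdf15 and the pore-forming protein Bax were higher than on control, by 1.66-fold for Bax to 5.16-fold for Cdkn1a. The p53 feedback genes Mdm2 and Ccng1 and the stress protein gene Trp53inp1 were not past the threshold. Cdkn2a and Cdkn2b were close to the limit of detection in both groups. A gene was called at an FDR ≤ 0.01 and |log2FC| > 0.5 with edgeR's quasi-likelihood test over all 24 libraries. Of the 8 genes that passed the filter on low counts, 5 were called higher and 0 lower, where 19.2% of the 14109 genes tested were called higher, 19.1% lower and 38.3% in either direction. At an unadjusted p under 0.05, 1 of the 8 was lower (Ccng1), and DESeq2 and limma-voom called 0 lower at the same threshold. The lowest count of any of the 8 in any library was 27. The median log2 fold change was 1.04 over these 8 genes and -0.10 over all tested genes. In whole liver, a change in the share of a cell type and a change in RNA per cell cannot be told apart.

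**Figure D1:**
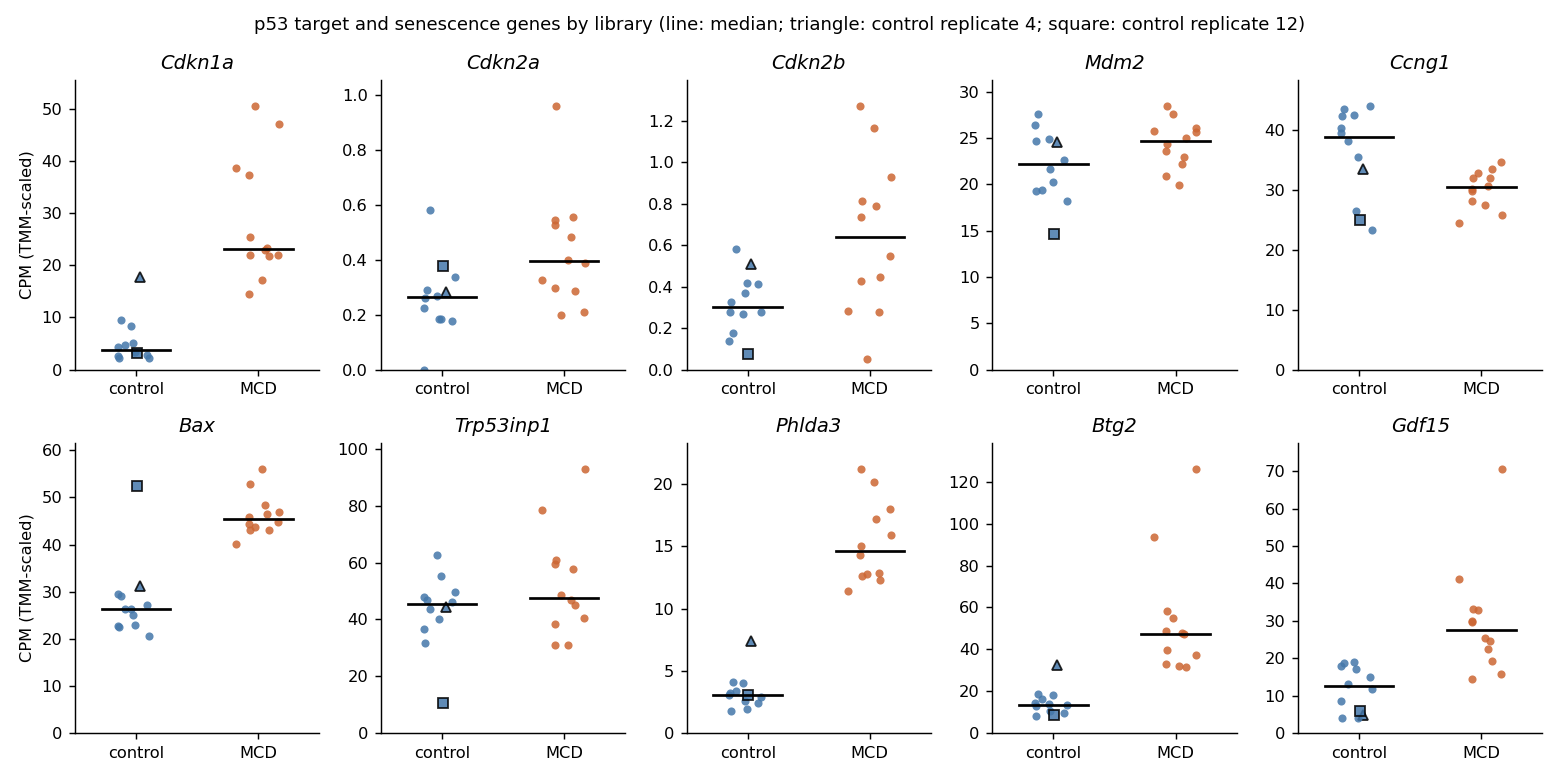
TMM-scaled CPM (vertical axis, from 0, separate scale per panel) of the 10 genes in each of 12 control and 12 MCD libraries, with a line at the median. All 12 MCD libraries lie above all control libraries for Phlda3, while Mdm2 and Trp53inp1 overlap widely, and control replicate 12 alone reaches the MCD range for Bax (52.4 CPM).

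Cdkn1a (ENSMUSG00000023067, chr17:29090976-29100727 on GRCm38, plus strand) encodes p21, the CDK inhibitor through which p53 stops cells before DNA replication. Its level had a lowest value of 2.24, a median of 3.77 and a highest value of 17.7 CPM on control, and 14.6, 23.1 and 50.5 CPM on MCD. The groups met only at control replicate 4, the library with the highest macrophage and collagen transcripts among controls. Of the 12 MCD libraries, 10 were above that library and all 12 were above the next control at 9.55 CPM. The log2 fold change was 2.37 ± 0.31 (SE, n = 12 per diet, edgeR FDR = 3.04e-07), and 2.69 ± 0.28 without control replicates 4 and 12. On control the lowest and highest libraries of this gene differed more than those of Phlda3 or Btg2, with an SD on the log2 scale of 0.85 against 0.47 and 0.54. The transcript AC167363.2 on the opposite strand shares 273 exon bases with Cdkn1a but had 34 counts over all libraries, against 9307 for Cdkn1a.

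The products of the Cdkn2a locus, p16 and the Mdm2 antagonist p19Arf, arise from 2 transcripts with different first exons, and gene counts do not separate them. Cdkn2a (ENSMUSG00000044303, chr4:89274471-89294653, minus strand) had 0 to 10 raw counts per control library with a median of 4.5, and 4 to 26 per MCD library with a median of 10. Cdkn2b (ENSMUSG00000073802, chr4:89306299-89311039, minus strand), the neighbouring gene for p15, had 1 to 10 counts on control with a median of 5.5, and 1 to 35 on MCD with a median of 13.5. Both failed the low-count filter. In the same test without the filter, the log2 fold change was 0.74 ± 0.33 (SE) for Cdkn2a, with an FDR of 0.0796, and 1.03 ± 0.35 for Cdkn2b, with an FDR of 0.0198. The groups overlapped for both genes, with 1 MCD library above all controls for Cdkn2a and 6 for Cdkn2b. The Cdkn2b call depended on the settings, since its FDR fell to 0.00394 without MCD replicate 1, which had the lowest level in that group, to 0.00655 with DESeq2 and to 0.00365 with scaling by total counts alone. A count of 3 corresponded to 0.109 to 0.227 CPM, against median levels of 0.264 and 0.394 CPM for Cdkn2a and 0.303 and 0.642 CPM for Cdkn2b.

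The feedback genes were not past the threshold. Mdm2 (ENSMUSG00000020184, chr10:117688875-117710758, minus strand), which marks p53 for degradation, had a lowest, median and highest level of 14.6, 22.1 and 27.5 CPM on control and 20.0, 24.6 and 28.4 CPM on MCD. The ranges overlapped, with 2 MCD libraries above all controls and 4 controls below all MCD libraries, and 10 of 12 MCD libraries were above the control median. Its log2 fold change was 0.15 ± 0.088 (SE, 95% CI -0.04 to 0.33, edgeR FDR = 0.149). Scaling by total counts alone gave 0.49 with an FDR of 0.000233, but it also moved the median of all genes by 0.36 on the log2 scale. Ccng1 (ENSMUSG00000020326, chr11:40748552-40755311, minus strand) encodes cyclin G1, which recruits a phosphatase to Mdm2. It had 23.4, 38.9 and 44.0 CPM on control and 24.5, 30.4 and 34.6 CPM on MCD, and 0 of the 12 MCD libraries exceeded the control median. The controls of this gene were spread out, with 3 of them between 23.4 and 26.5 CPM, and the fit gave -0.26 ± 0.10 (95% CI -0.47 to -0.06, FDR = 0.0233), short of the threshold. With total counts alone, and so with the shift of all genes by 0.36, the value was 0.09 (FDR = 0.499).

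Among the genes of apoptosis and Akt restraint, Phlda3 (ENSMUSG00000041801, chr1:135766119-135769136, plus strand) separated the diets completely. Phlda3 blocks the membrane binding of the kinase Akt. Its lowest, median and highest levels were 1.76, 3.05 and 7.41 CPM on control and 11.4, 14.7 and 21.2 CPM on MCD. Every MCD library was above every control library, a separation found for 9.50% of all tested genes, and Phlda3 was the 1 of the 8 tested genes to show it. For 0 of the 8 was every MCD library below every control, against 4.88% of all tested genes. The log2 fold change was 2.20 ± 0.18 (SE, n = 12 per diet, FDR = 6.71e-11), and 2.42 ± 0.15 without control replicates 4 and 12. The control nearest to the MCD range was again replicate 4.

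Bax (ENSMUSG00000003873, chr7:45461697-45466898, minus strand) permeabilises the outer mitochondrial membrane in apoptosis. It had 20.6, 26.3 and 52.4 CPM on control and 40.0, 45.3 and 55.9 CPM on MCD. The overlap came from control replicate 12 alone, and all 12 MCD libraries were above the next control at 31.2 CPM. The log2 fold change was 0.73 ± 0.11 (FDR = 2.66e-06), and 0.88 ± 0.069 without control replicate 12. The lower end of its 95% CI was 0.50, the fold limit itself. Bax shares 192 exon bases on the same strand with Gm45808, whose mean level went from 17.8 to 6.52 CPM, and how reads in the shared bases were assigned for the mouse libraries is not given in the sources used here. Trp53inp1 (ENSMUSG00000028211, chr4:11156431-11174379, plus strand), a p53-induced stress protein of the nucleus and autophagosome, had 10.7, 45.3 and 62.9 CPM on control and 31.0, 47.7 and 92.9 CPM on MCD. Its log2 fold change was 0.29 ± 0.20 (95% CI -0.12 to 0.70, FDR = 0.208). Control replicate 12 held the lowest level, and the next control had 31.7 CPM. Without control replicates 4 and 12 together the log2 fold change was 0.24 ± 0.17.

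Btg2 and Gdf15 rose with the widest spread among MCD libraries, with an SD of 0.61 on the log2 scale for each. Btg2 (ENSMUSG00000020423, chr1:134075170-134079120, minus strand), which recruits the deadenylase complex to messenger RNA and slows proliferation, had 8.26, 13.5 and 32.6 CPM on control and 31.5, 47.3 and 126 CPM on MCD. As for Cdkn1a, the overlap came from control replicate 4, and all 12 MCD libraries were above the next control at 18.8 CPM. The log2 fold change was 1.88 ± 0.24 (FDR = 2.01e-07), and 2.05 ± 0.23 without control replicates 4 and 12. Gdf15 (ENSMUSG00000038508, chr8:70629393-70632456, minus strand) encodes a hormone of the TGF-beta family that reduces food intake through a receptor in the hindbrain. It had 3.90, 12.5 and 18.9 CPM on control and 14.5, 27.6 and 70.5 CPM on MCD. Here control replicate 4 was low, at 4.87 CPM, and the overlap came from several controls near the top of their range, with 10 of 12 MCD libraries above all of them. The log2 fold change was 1.36 ± 0.28 (FDR = 0.000168), and 1.25 ± 0.29 without control replicates 4 and 12. MCD replicate 10 was the highest library for Btg2, Gdf15 and Trp53inp1, and MCD replicate 1 for Cdkn1a.

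**Figure D2:**
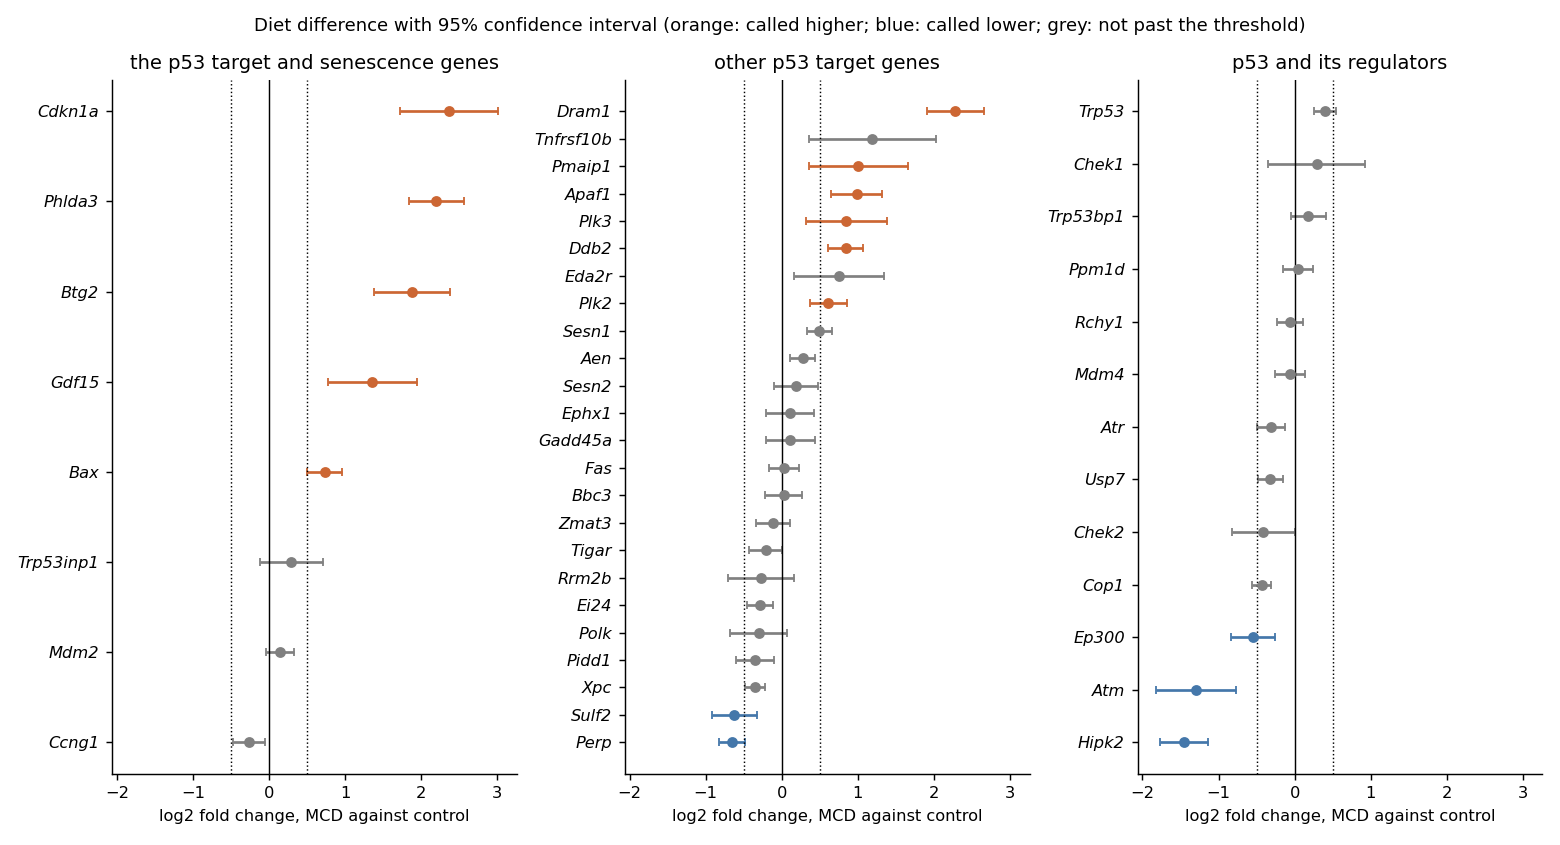
Log2 fold change of MCD against control (horizontal axis) with its 95% confidence interval for the tested genes among the 10, for other p53 targets and for p53 with its regulators, with dotted lines at the fold limit of 0.5. Cdkn1a (2.37), Phlda3 (2.20) and Dram1 (2.28) lie farthest to the right, and no regulator of p53 was called higher.

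The order of the genes changed between diets when levels were divided by the length of the longest transcript. On control, mean levels in CPM per kb were 25.4 for Bax, 10.3 for Ccng1, 7.92 for Trp53inp1, 7.56 for Gdf15, 7.0 for Mdm2, 5.35 for Btg2, 2.64 for Cdkn1a and 2.32 for Phlda3. The SDs of the genes from Ccng1 to Btg2 were 2.13, 2.40, 3.88, 1.21 and 2.42 CPM per kb, so neighbours in that run differed by less than the larger of their SDs, as did Cdkn1a and Phlda3 with SDs of 2.17 and 1.03. On MCD, Bax stayed first at 42.1 CPM per kb. It was followed by Btg2 at 19.7, Gdf15 at 19.4, Cdkn1a at 13.7, Phlda3 at 10.7, Trp53inp1 at 9.69, Ccng1 at 8.58 and Mdm2 at 7.74 CPM per kb. From Btg2 to Mdm2 the SDs were 10.3, 9.67, 5.68, 2.25, 3.43, 0.891 and 0.820 CPM per kb, and no pair of neighbours differed by more than the larger of their SDs. Cdkn2a and Cdkn2b were the lowest of the 10 on both diets, at 0.295 and 0.230 CPM per kb on control and 0.482 and 0.464 on MCD.

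Cdkn1a was compared with the other 7 tested genes across libraries within each diet, 14 relations in all. The comparison used edgeR's log2 CPM with a prior count of 2, and permutation tests. On control it followed Phlda3 (Pearson's r = 0.85, permutation p = 0.00049, adjusted p = 0.00686, Spearman's rho = 0.73, permutation p = 0.00945, adjusted p = 0.0441) and Btg2 (r = 0.74, permutation p = 0.00629, adjusted p = 0.0185, rho = 0.59, permutation p = 0.046, adjusted p = 0.129). On MCD it followed Gdf15 (r = 0.77, permutation p = 0.00281, adjusted p = 0.0173, rho = 0.76, permutation p = 0.00535, adjusted p = 0.0375), Btg2 (r = 0.76, permutation p = 0.0037, adjusted p = 0.0173, rho = 0.80, permutation p = 0.00243, adjusted p = 0.034) and Trp53inp1 (r = 0.74, permutation p = 0.00662, adjusted p = 0.0185, rho = 0.71, permutation p = 0.0128, adjusted p = 0.0447). Without the 2 libraries farthest from the Cdkn1a median, control replicates 4 and 8, r was 0.60 for Phlda3 (permutation p = 0.0692, adjusted p = 0.181) and 0.30 for Btg2 (permutation p = 0.398, adjusted p = 0.558) over 10 libraries with a narrower range of Cdkn1a, so neither control relation held without them. Gdf15 had an r of 0.10 with Cdkn1a on control and 0.43 without those 2 libraries (adjusted permutation p = 0.756 and 0.375). Without MCD replicates 1 and 10, r was 0.71 for Gdf15, 0.74 for Btg2 and 0.82 for Trp53inp1, with adjusted permutation p-values of 0.0889, 0.0889 and 0.0567. Phlda3, which like Cdkn1a was higher on MCD, had an r of -0.55 with it within MCD (permutation p = 0.0643, adjusted p = 0.129). The difference between the diets' correlations was not tested. No batch is labelled, and removing a sex-linked expression score from each gene left the same 5 relations with an adjusted p under the threshold of 0.05 for r, while by rho 1 relation (Gdf15 on MCD) remained past it of 4 before. With total counts alone the same 5 relations stayed past it by r. By rho Phlda3 and Btg2 on control and Btg2 on MCD were past it. Gdf15 and Trp53inp1 on MCD were not (adjusted permutation p = 0.0907 and 0.0979 for rho).

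**Figure D3:**
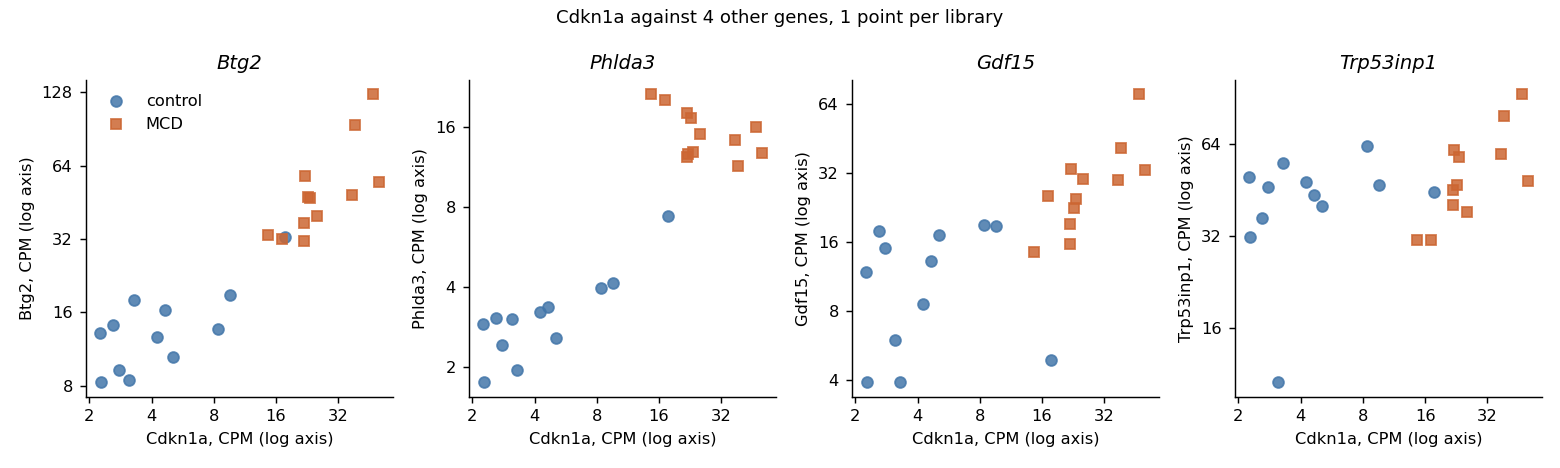
CPM of Btg2, Phlda3, Gdf15 and Trp53inp1 (vertical, log axis) against CPM of Cdkn1a (horizontal, log axis), with circles for the 12 control and squares for the 12 MCD libraries. Within MCD, the points rise for Btg2, Gdf15 and Trp53inp1 and fall for Phlda3 (r = -0.55).

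The difference in p53 itself lay within the fold limit. Trp53 went from a median of 25.8 to 33.4 CPM, with a log2 fold change of 0.40 ± 0.070 and an FDR of 2.10e-05, and 8 of 12 MCD libraries were above all controls. Without control replicates 4 and 12 the value was 0.50 and passed the limit. Of the 15 genes of p53 and its regulators, 13 were tested, of which 0 were called higher and 3 lower (23.1%) by edgeR at the threshold, beside 19.2% and 19.1% of all tested genes. DESeq2 and limma-voom also called 0 higher, and 1, Trp53, was higher at an unadjusted p under 0.05. Upper-quartile factors called Trp53 higher, total counts alone called Trp53 and Trp53bp1, and the fit without a low-count filter called Trp63. The 3 lower genes were the p53 kinase Hipk2 (-1.45 ± 0.15, FDR = 6.83e-09), the DNA damage kinase Atm (-1.30 ± 0.25, FDR = 8.19e-05) and the acetyltransferase Ep300 (-0.55 ± 0.14, FDR = 0.0012). Ep300 lay near the fold limit and lost its call in 8 of 12 alternatives, among them DESeq2, limma-voom and the other 3 scalings, over which its log2 fold change ran from -0.62 to -0.22 and its adjusted p reached 0.258. It also lost its call without control replicate 3, control replicate 6, MCD replicate 2 or MCD replicate 7. Trp63 and Trp73, relatives of p53, were too low to be tested. The median log2 fold change of the list was -0.31.

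Of 24 other p53 targets, all tested, 6 were called higher (25%), 2 lower (8.33%) and 16 neither way, beside 19.2% higher and 19.1% lower of all tested genes. Their median log2 fold change was 0.11. Dram1, an inducer of autophagy, changed most, from a range of 0.295 to 1.89 CPM on control to 4.94 to 7.68 CPM on MCD (log2FC = 2.28 ± 0.18, FDR = 5.84e-11), with every MCD library above every control. The apoptosome component Apaf1 (0.99 ± 0.16, FDR = 7.95e-06) and the stress kinase Plk3 (0.85 ± 0.26, FDR = 0.00544) were also higher. Plk3 overlapped between the diets and lost its call without control replicate 2, 6 or 9 or MCD replicate 1. The genes that fell were Perp, a desmosome and apoptosis protein (-0.66 ± 0.083, FDR = 1.68e-07), for which all 12 MCD libraries were below all controls, and the sulphatase Sulf2 (-0.62 ± 0.14, FDR = 0.000517). Sulf2 shares 154 exon bases with Ncoa3 on the opposite strand, and whether these mouse counts used strand is not given, although the study's supplement names a stranded library kit for its RNA sequencing. Perp lost its call in 2 of 12 alternatives and Sulf2 in 3. Over these the log2 fold change of Sulf2 ran from -0.62 to -0.29 and its adjusted p reached 0.149. The count of higher genes was 9 without control replicate 8, and 4 without control replicate 9 or MCD replicate 1.

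Of 18 relatives of the 10 genes within their families, 17 were tested, 6 were called higher (35.3%) and 2 lower (11.8%), beside 19.2% and 19.1% of all tested genes, with a median log2 fold change of 0.19. The Btg2 relative Btg3 rose by 1.74 ± 0.22 (FDR = 1.13e-07), although it shares 695 exon bases with the more abundant gene Cxadr on the opposite strand. In the Bax family the anti-apoptotic Bcl2 rose by 1.21 ± 0.23 (FDR = 6.90e-05) and the pro-apoptotic Bok by 1.06 ± 0.16 (FDR = 1.74e-06). Tob2, another relative of Btg2, fell by 0.63 on the log2 scale (FDR = 0.00147), and Trp53inp2, the relative of Trp53inp1, fell by 0.56 (FDR = 6.84e-05). Tob2 lost its call in 3 of 12 alternatives, over which its log2 fold change ran from -0.68 to -0.30 and its adjusted p reached 0.148. The Trp53inp2 call was lost in 6 of 12 alternatives, DESeq2 and the other 3 scalings among them, and without control replicate 1 or MCD replicate 2, 6 or 8, which left 1 lower relative.

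**Figure D4:**
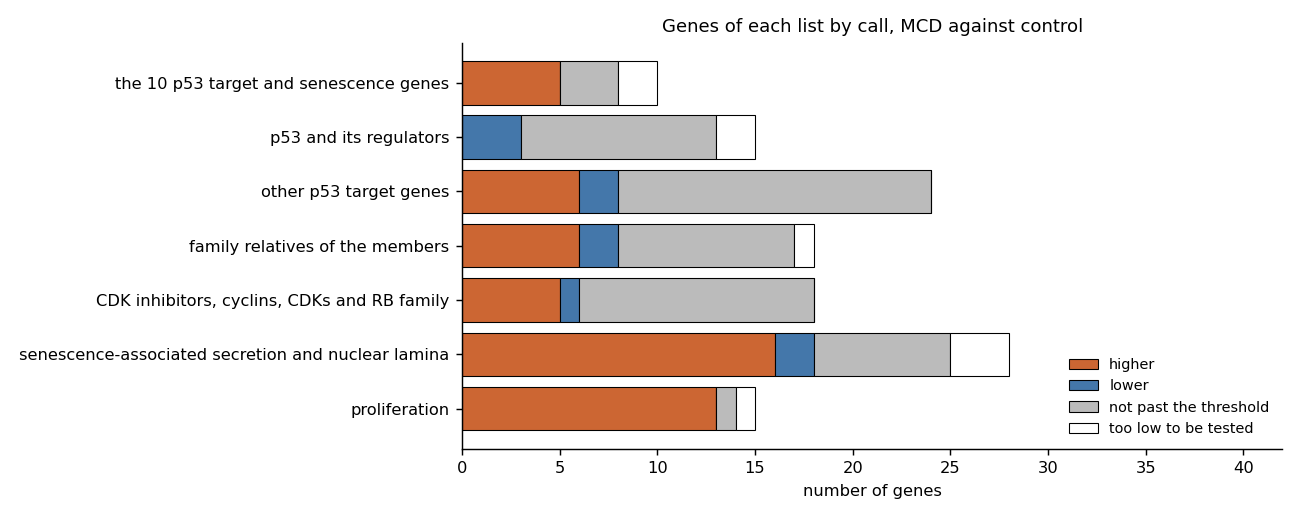
Number of genes (horizontal axis) called higher, called lower, not past the threshold or too low to be tested in each list. The proliferation list has 13 of 14 tested genes called higher, and p53 with its regulators has 0 higher and 3 lower of 13, where 19.2% of all tested genes were higher and 19.1% lower.

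Of 18 further CDK inhibitors, cyclins, CDKs and members of the RB and E2F families, 5 were called higher (27.8%) and 1 lower (5.56%), beside 19.2% and 19.1% of all tested genes, with a median log2 fold change of 0.13. The higher genes included the p57 gene Cdkn1c (1.34 ± 0.19, FDR = 1.09e-06), the p18 gene Cdkn2c (0.98 ± 0.17, FDR = 1.36e-05), for which every MCD library was above every control, and the RB relative Rbl1 (0.77 ± 0.24, FDR = 0.00591). The count was 3 without control replicate 7 or 10, and Rbl1 was not called without control replicate 6, 7 or 10. The CDK inhibitor genes Cdkn1b (0.15, FDR = 0.177) and Cdkn2d (0.03, FDR = 0.844), named after their values were seen, were not past the threshold. Rbl2, the 1 lower gene, lay at -0.51 ± 0.12, beside the fold limit, and lost its call in 16 of the 24 fits that left out 1 library and in 9 of the 12 other alternatives. It also shares 693 exon bases with Aktip on the opposite strand.

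Of 15 proliferation genes, 14 were tested and 13 were called higher, with a median log2 fold change of 1.45. The mitotic kinase Cdk1 went from a median of 1.51 to 5.39 CPM (1.79 ± 0.21, FDR = 3.43e-08), the cyclin Ccnb2 from 1.03 to 3.71 CPM (1.79 ± 0.22, FDR = 8.87e-08) and the kinase Plk1 from 0.853 to 3.65 CPM (1.73 ± 0.24, FDR = 7.26e-07). Of the tested proliferation genes, 92.9% were called higher, beside 19.2% of all tested genes.

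The list of genes associated with senescence, most of them secreted factors, had 28 genes, of which 25 were tested, 16 called higher (64%) and 2 lower (8%), beside 19.2% and 19.1% of all tested genes. Their median log2 fold change was 1.59. The macrophage elastase Mmp12 went from a median of 1.94 to 241 CPM (5.69 ± 0.53, FDR = 9.38e-10), the protease inhibitor Timp1 from 0.430 to 11 CPM (3.77 ± 0.34, FDR = 6.49e-10) and the urokinase receptor Plaur from 0.911 to 9.99 CPM (3.35 ± 0.22, FDR = 2.72e-12). All 12 MCD libraries were above all controls for each of these 3. The genes that fell were the growth factor binding protein Igfbp3 (-0.80 ± 0.15, FDR = 5.72e-05) and Vegfa (-0.76 ± 0.13, FDR = 1.69e-05), an endothelial growth factor. The list pools secreted factors with the nuclear proteins Lmnb1, Hmgb1 and Hmgb2, which are known to be lost from the nucleus of many senescent cells, and with Glb1, the gene of the senescence-associated galactosidase, and these 4 are named after their values were seen. The lamin Lmnb1 had a median of 5.42 CPM on control and 5.22 CPM on MCD (-0.06 ± 0.11, FDR = 0.632). The chromatin protein Hmgb2, counted among the 16 higher genes, went from 3.23 to 5.65 CPM (0.89 ± 0.10, FDR = 2.58e-08), with all 12 MCD libraries above all controls. Its relative Hmgb1 (-0.04, FDR = 0.645) and Glb1 (-0.13, FDR = 0.223) were not past the threshold.

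Markers of other cell types moved with the diet beside these results, to be read against the 19.2% of all tested genes called higher and 19.1% called lower. The 6 monocyte-derived macrophage markers were all called higher, with the sum going from 10.1 to 65.5 CPM on control to 596 to 1330 CPM on MCD, and 1 of them was at 0 in 1 control library. Of 6 cholangiocyte markers, 5 were higher, with a sum of 23.0 to 43.7 CPM on control and 71.4 to 136 CPM on MCD, and 1 was at 0 in 3 control libraries. Of 7 mesenchymal markers, 6 were higher and 1 lower, with sums of 146 to 409 CPM and 532 to 916 CPM, and none was at 0. Lymphocyte markers were low, with 3 of 6 higher, sums of 3.12 to 11 CPM and 8.87 to 18.5 CPM, and 1 at 0 in 1 control library. Of 5 Kupffer cell markers 4 fell, with sums of 137 to 423 CPM and 81.3 to 297 CPM, and of 6 endothelial markers 5 fell, with sums of 190 to 283 CPM and 105 to 175 CPM. Of 7 hepatocyte markers 2 fell (28.6%). Without control replicates 4 and 12, 5 of the 10 genes were still called higher and 0 lower, 8 of the other p53 targets were higher and 2 lower, and 14 proliferation genes were higher. The part of these cell types in the changes of Cdkn1a, Phlda3, Btg2, Gdf15, Bax and the listed genes was not tested.

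The direction and call of the genes that rose did not depend on how libraries were scaled. Over all alternatives other than leaving out 1 library, the log2 fold change stayed between 2.35 and 2.69 for Cdkn1a, 2.20 and 2.55 for Phlda3, 1.83 and 2.20 for Btg2, 1.25 and 1.68 for Gdf15 and 0.73 and 1.12 for Bax. Mdm2 stayed between 0.15 and 0.49 and Trp53inp1 between 0.24 and 0.60, short of the threshold in each.

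**Figure D5:**
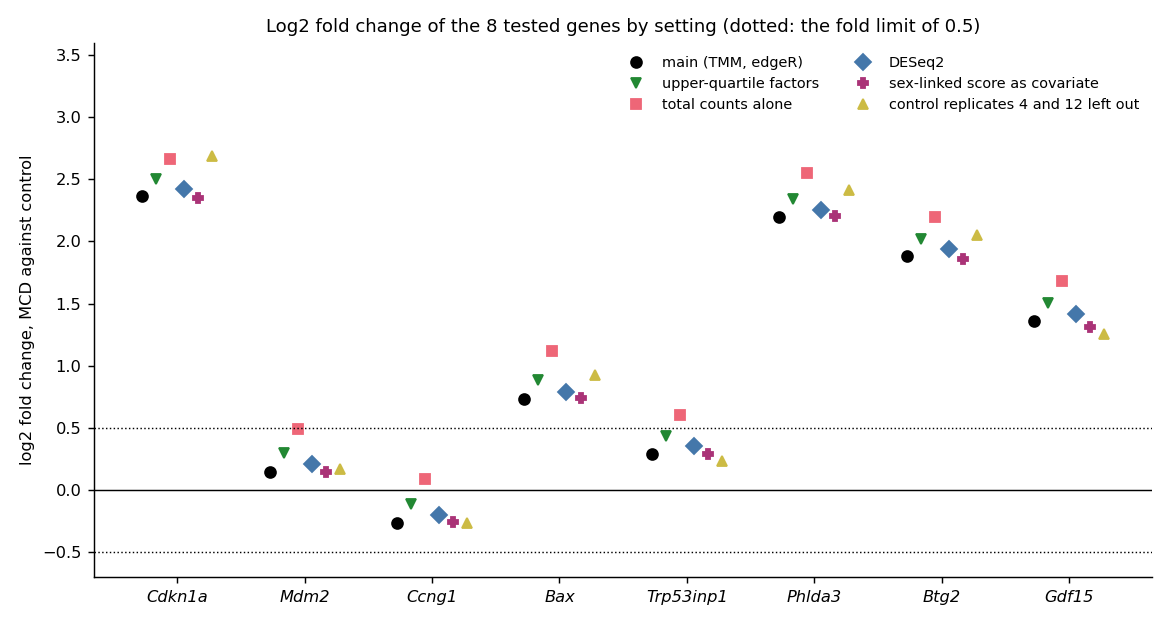
Log2 fold change of MCD against control (vertical axis) of the 8 tested genes with TMM factors and edgeR and under 5 alternatives, 1 symbol a setting, with dotted lines at the fold limit of 0.5. Cdkn1a, Phlda3, Btg2, Gdf15 and Bax stay above the limit in each, and Ccng1 is above 0 with total counts alone (0.09).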

How the data were processed

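Libraries were made from poly(A) RNA, and the authors deposited a table of raw counts by Ensembl gene identifier, with a column for each library and no scaling. The submitters' processing notes name bcl2fastq, STAR 2.7.3a and mm10, with no role given. The study's supplement names a stranded mRNA kit, the exon quantification pipeline with STAR, and PISCES for gene quantification, against a human reference. Whether the mouse libraries were counted the same way, with which annotation and with which strand setting, is not given in the sources used here. Symbols, coordinates, transcript lengths and exon overlaps were matched by that identifier in GENCODE release M21 (mouse) on GRCm38, the build of mm10, although some identifiers in the table are newer than that release. Promoters came from RefSeq.

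The 10 genes, the lists, the threshold and the tests were chosen with earlier results of these data known. Genes were kept with filterByExpr by diet (14109 of 56205), scaled with TMM factors and compared with edgeR 4.0.16 in R 4.3.3 (glmQLFit and glmQLFTest, 12 libraries per diet, no covariate). The biological coefficient of variation was 26.8%. FDR is the Benjamini-Hochberg value over all tested genes. The SE of a log2 fold change is its size over the square root of edgeR's F. Cdkn2a and Cdkn2b values are from the fit without a filter. A fold of a low gene depends on the prior count. SDs on the log2 scale used log2(CPM + 0.5). Correlations used edgeR's log2 CPM with a prior count of 2. Their two-sided permutation tests had 100000 resamples (scipy 1.17.1) and were adjusted over 14 relations. Marker and list sums are in TMM-scaled CPM. No 2 libraries were identical.

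Named are all 10 genes and, per list, the 3 largest rises and 3 largest falls among called genes with a mean of at least 1 CPM. Genes nearest in pattern are the 5 with the highest Pearson's r over 24 libraries after centring within diet.

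Same-numbered libraries of the 2 diets correlated above 0.1 in 8 of 12 cases but not in the other 4, down to -0.28 (median 0.23). Unlike-numbered libraries were not compared, so these values cannot show whether equal numbers mark a shared batch or sex. No label ties the numbers to a shared animal or batch, so they were not taken to pair the libraries. Alternatives were other scaling factors, total counts alone, DESeq2 1.42.0, limma-voom (limma 3.58.1), no filter, a filter of 10 counts in every library, a block by replicate number, a covariate made from sex-linked transcripts, other thresholds and leaving out each library. Leaving out control replicates 4 and 12 together, and the further fits of Cdkn2a and Cdkn2b, were chosen after seeing the data. The fits were run on simulated data in which few genes changed, equally up and down. That setting does not test the scaling where many genes change. Counting error alone sets the floors given.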

Additional observations from a re-analysis of the deposited data

How the results depend on the processing

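Of the 10 genes, 5 were called higher in each of the 24 fits that left out 1 library (range 5 to 5) and 0 lower (0 to 0), and 5 in each other alternative except a log2 limit of 1, which removed Bax. With an FDR of 0.05 and no fold limit, 1 was lower, Ccng1. The log2 fold change of Ccng1 reversed to 0.0916 with total counts alone, which moved the median of all genes by 0.36. Among p53 and its regulators, 1 was higher with upper-quartile factors (Trp53), with no low-count filter (Trp63), without control replicates 4 and 12 (Trp53) and at an FDR of 0.05 (Trp53), and 2 with total counts alone, while lower genes were 1 with at least 10 counts in every sample and 6 at an FDR of 0.05. Other p53 targets called higher were 11 with total counts alone, 10 at an FDR of 0.05 and 2 at a log2 limit of 1. Those called lower were 1 with upper-quartile factors, 0 with total counts alone, 5 at an FDR of 0.05 and 0 at a log2 limit of 1. Of the CDK, cyclin and RB list, 1 was higher at a log2 limit of 1. The lower count there, Rbl2 alone, was 0 with relative log expression, upper-quartile factors, total counts alone, no filter, at least 10 counts, DESeq2, limma-voom, the replicate block and a log2 limit of 1, and 5 at an FDR of 0.05. With at least 10 counts in every sample, 8 proliferation genes and 7 senescence-associated genes were higher, since fewer genes were tested. Lower senescence-associated genes were 0 with total counts alone and at a log2 limit of 1. Relatives called higher were 10 with total counts alone and 3 at a log2 limit of 1, and those called lower were 1 with relative log expression, at least 10 counts or DESeq2 and 0 with upper-quartile factors, total counts alone or a log2 limit of 1. The cause of the changes with scaling was not tested. Leaving out 1 library gave 3 to 5 higher and 0 to 2 lower genes in the CDK, cyclin and RB list (2 lower without control replicate 6), 1 to 2 lower relatives, and 4 to 9 higher other p53 targets. Without the 2 libraries farthest from the Cdkn1a median, the 5 relations of Cdkn1a past an adjusted p of 0.05 fell short of it, at r = 0.60 (Phlda3) and 0.30 (Btg2) on control and 0.82 (Trp53inp1), 0.74 (Btg2) and 0.71 (Gdf15) on MCD, partly because 10 libraries remained.

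Same-numbered libraries correlated from -0.28 to 0.35. With the replicate block, 5 of the 10 genes were higher and 0 lower, and Cdkn1a had a log2 fold change of 2.55. For Cdkn2a and Cdkn2b, depth limits what can be shown, since 3 counts amount to 0.109 to 0.227 CPM.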

Other observations

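Genes other than the 10 were ranked by how closely their levels followed Cdkn1a and Gdf15 across the 24 libraries after centring within diet, among 13096 genes. These correlations share libraries and depth and are given as descriptions. For Cdkn1a the nearest were Lpl, the lipoprotein lipase (r = 0.79), Ccdc120 (0.78), Rgs1, a regulator of G protein signalling in leukocytes (0.77), and the metalloproteinases Mmp12 (0.76) and Mmp13 (0.76). All 5 were called higher on MCD, with log2 fold changes of 3.20 for Lpl, 2.14 for Ccdc120, 3.08 for Rgs1, 5.69 for Mmp12 and 2.34 for Mmp13. Within each diet the values were as follows, and the difference between diets was not tested. For Lpl r was 0.93 on control and 0.18 on MCD, for Mmp12 0.90 and 0.15, and for Mmp13 0.89 and 0.29, while Rgs1 had 0.81 and 0.69 and Ccdc120 0.86 and 0.55. Without control replicate 4, a choice made after seeing the data, the pooled values of the 5 genes were 0.66 to 0.70. Among the 10 genes, Btg2 had an r of 0.74 with Cdkn1a on control and 0.76 on MCD, against 0.85 and -0.55 for Phlda3 and 0.10 and 0.77 for Gdf15. Without control replicate 4 the pooled r with Cdkn1a went from 0.72 to 0.62 for Btg2, from 0.49 to 0.18 for Phlda3 and from 0.30 to 0.61 for Gdf15. Mmp12 and Mmp13 also belong to the list of senescence-associated secreted factors.

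For Gdf15 the nearest were the ephrin receptor gene Epha2 (r = 0.72), the endoplasmic reticulum ATPase gene Tor1b (0.71), the hepatic stress hormone gene Fgf21 (0.70), Lnx2 (0.68) and the heat shock gene Hspa1b (0.67), and without control replicate 4 these values were 0.67 to 0.76. Fgf21 went from a mean of 7.28 to 16.3 CPM (log2FC = 1.16 ± 0.28, edgeR FDR = 0.000789) and Hspa1b had a log2 fold change of 0.68 ± 0.17 (FDR = 0.000952). Epha2 (0.10), Tor1b (-0.05) and Lnx2 (-0.34) were not past the threshold between diets. The 5 nearest genes of Cdkn1a and the 5 of Gdf15 had no gene in common. With only the top 5 of 13096 ranked genes compared, this cannot show whether Cdkn1a and Gdf15 share a pattern.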
